A study of Mus musculus with 15 samples.

Results

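The hypoxia response and erythropoietin genes were 9 of the 54532 genes measured in the kidneys of mice with adenine-induced chronic kidney disease (CKD), and they were taken as the rows whose Ensembl identifiers belong to Hif1a, Epas1, Vhl, Egln1, Egln3, Vegfa, Epo, Bnip3 and Ankrd37. One identifier matched each symbol. Kidneys of 15 male C57BL/6 mice, aged 8 weeks at the start, were sequenced, 5 in each of 3 groups. The C group ate a normal diet and the M group a diet with 0.25% adenine for 4 weeks, followed by standard diet until week 8. The AA group received the same adenine and, by daily gavage through week 8, 30 mg/kg of asiatic acid (AA), a triterpenoid of Centella asiatica, while C and M mice received the vehicle of DMSO in saline. The M and AA groups therefore share the adenine diet, C and AA differ in both diet and compound, and the 3 comparisons (AA vs. M, AA vs. C, M vs. C) share libraries. Levels are FPKM as deposited by the authors, fragments scaled to gene length and to a denominator for each library that is described below. Each value is 1 library of 1 mouse.

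Cells adjust to low oxygen through hypoxia-inducible factors (HIFs), each made of an oxygen-regulated alpha subunit (HIF-1 alpha from Hif1a, HIF-2 alpha from Epas1) and the stable partner ARNT. When oxygen is present, prolyl hydroxylases, among them PHD2 from Egln1 and PHD3 from Egln3, hydroxylate the alpha subunit, the VHL protein binds it as part of a ubiquitin ligase, and it is degraded, so much of this control acts on the protein and is not seen in RNA. In low oxygen the factors bind the core RCGTG (R for A or G) near their targets, which include Vegfa, Bnip3, Ankrd37, Egln3 and Epo. In the adult kidney erythropoietin is made by interstitial fibroblast-like cells under HIF-2 alpha, and loss of this output contributes to the anaemia of CKD.

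RefSeq sequences upstream of the start (GRCm38.p6) were found for 8 of the 9 genes, all but Epas1, and are shown for 3 HIF targets, Bnip3 and Ankrd37 because they held the most HIF cores and Vegfa because it was the 1 gene called. The core was searched as ACGTG and GCGTG on both strands in the 250 bases before the start, and matches are in capitals. A match can read on both strands, as CACGTG does for ACGTG, and it is then counted once on each.
Bnip3 (chr7:138909507-138909756, minus strand): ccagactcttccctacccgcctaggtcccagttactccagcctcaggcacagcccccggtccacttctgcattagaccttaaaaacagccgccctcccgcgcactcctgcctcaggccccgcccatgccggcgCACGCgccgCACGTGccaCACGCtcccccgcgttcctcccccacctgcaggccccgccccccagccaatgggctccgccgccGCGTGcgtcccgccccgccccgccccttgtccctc
Ankrd37 (chr8:45999851-46000100, minus strand): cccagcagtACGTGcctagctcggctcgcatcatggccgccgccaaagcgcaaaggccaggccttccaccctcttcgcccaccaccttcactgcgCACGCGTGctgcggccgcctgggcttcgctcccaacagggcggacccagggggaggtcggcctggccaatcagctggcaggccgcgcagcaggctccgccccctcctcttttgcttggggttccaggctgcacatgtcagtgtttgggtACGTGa
Vegfa (chr17:46032378-46032627, minus strand): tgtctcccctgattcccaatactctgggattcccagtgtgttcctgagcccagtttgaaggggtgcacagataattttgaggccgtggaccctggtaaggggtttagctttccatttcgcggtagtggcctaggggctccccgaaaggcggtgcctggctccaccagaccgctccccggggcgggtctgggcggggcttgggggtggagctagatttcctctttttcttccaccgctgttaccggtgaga
Bnip3 had 5 matches and Ankrd37 had 4. Vegfa has 2 windows in RefSeq, and the one shown, at the outer start, had 0, while the other, at a start inside the gene (chr17:46025164-46025413), had 2. Of the windows not shown, Hif1a had 3, Epo and Egln1 each had 2, Egln3 had 1 and Vhl had 0. The windows of Ankrd37, Hif1a and Epo lie before RefSeq starts that fall inside the gene positions given below, so these windows are within those positions. ACGTG was present in 16.57% and GCGTG in 28.16% of 32851 such windows, and either in 38.6%. These are matches of letters in a short window only, and hypoxia elements outside it were not searched.

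The libraries were unequal, and this touches every comparison below. Fragments outside the mitochondrial genome were recovered from the steps between FPKM values with a factor of 2 unresolved. Per library they numbered 6943398 to 13568450 in C, 2077289 to 7131220 in M and 2219711 to 4259510 in AA. Libraries M 1 to 3 had 11551, 10068 and 12222 genes above 0 FPKM, against 23040 and 25460 in M 4 and 5, 19864 to 25251 in C and 18695 to 22355 in AA. The mitochondrial share of fragments was 84.8 to 86.8% in M 1 to 3, 72.9 and 64.0% in M 4 and 5, 53.0 to 62.5% in C and 69.3 to 87.3% in AA. As recovered, every AA library had fewer fragments outside mitochondria and a larger mitochondrial share than every C library. In AA vs. C, group therefore cannot be told apart from depth or mitochondrial share. In the C group, mice 1 and 3 stood apart by the collecting duct water channel Aqp2, at 254.6 and 436.9 FPKM against 20.6 to 29.6 in C 2, 4 and 5. Nothing in the labels explains the division within M or within C, and the part of either in the results was not tested. Among the deposited columns, those of M 1 to 3 come first and those of M 4 and 5 last, after AA and C, and no reason is given. Values are given with and without these libraries where they matter. Tests used limma on log2(FPKM + 1), and a gene was called where the Benjamini-Hochberg adjusted p did not exceed 0.05 and the log2 fold change reached 1 in size.

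Across the 9 genes, limma called 0 in M vs. C, 0 of the 8 tested in AA vs. M and 1 in AA vs. C, where Vegfa was lower. Over all genes tested, 1.38% were called in M vs. C, 12.8% in AA vs. M and 19.8% in AA vs. C, so 1 call in 9 is no larger a share than among all genes. At an unadjusted p under 0.05 in limma, M vs. C had 1 of the 9 genes (Vegfa), beside 3493 of all 21153 tested. AA vs. M had 2 of 8 (Epas1 and Vegfa), beside 6360 of 19798. AA vs. C had 2 of 9 (Vegfa and Ankrd37), beside 10243 of 21898. Limma voom on the recovered fragments called 0, 0 and 2 of them in the same order, beside 1805, 1666 and 8557 of all genes. In each case the share among these genes was no larger than among all genes tested. Groups of 5 libraries did not overlap for 0 of the 9 genes in M vs. C, beside 4.72% of all genes tested, for 0 in AA vs. M, beside 13.2%, and for 1 in AA vs. C, beside 24.0%. The median log2 fold change of the 9 genes was 0.05 in M vs. C, 0.04 in AA vs. M and 0.14 in AA vs. C, beside -0.12, 0.17 and 0.09 over all genes. In bulk kidney RNA, fewer cells of a type and less RNA per cell cannot be told apart.

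**Figure D1:**
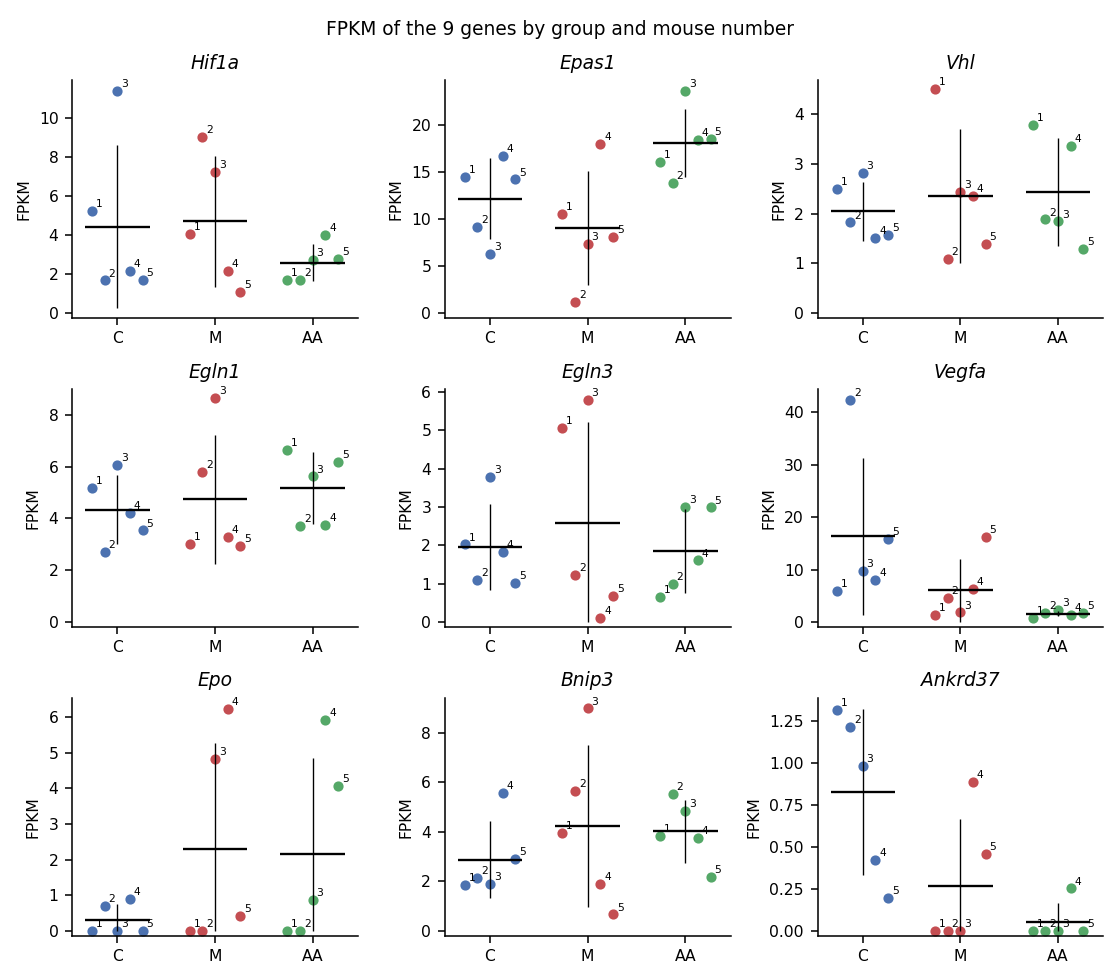
FPKM of each gene (vertical axis) in the C, M and AA groups, with 1 point per mouse numbered as in the labels, the group mean as a horizontal line and 1 SD as a vertical line that stops at 0. Vegfa in AA lies between 0.86 and 2.32 FPKM, below all 5 C libraries, while the groups of the other 8 genes overlap.

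Per kilobase, Epas1 was the most abundant of the 9 in the control kidney, with a median of 14.2 FPKM, followed by Vegfa at 9.72 and Egln1 at 4.22. Hif1a (2.17), Bnip3 (2.15), Egln3 (1.83) and Vhl (1.83) formed a middle range in which each gene's C values overlapped those of the next, Ankrd37 was at 0.98, and Epo was at 0 in 3 of 5 control libraries. The ranges of neighbours in this order overlapped, as for Epas1 (6.28 to 16.8) and Vegfa (5.99 to 42.3) or Ankrd37 (0.19 to 1.32) and Epo (0 to 0.90), except between Vhl (1.51 to 2.82) and Ankrd37, which were apart.

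Vegfa (ENSMUSG00000023951, chromosome 17, 46016993 to 46032369, minus strand) encodes vascular endothelial growth factor A, which podocytes and tubules make and which the capillary endothelium depends on. Its level was 5.99, 42.3, 9.72, 8.04 and 15.8 FPKM in C 1 to 5, 1.29, 4.56, 1.82, 6.27 and 16.2 in M 1 to 5, and 0.86, 1.66, 2.32, 1.41 and 1.71 in AA 1 to 5. All AA libraries were below all C libraries, the highest AA value being 2.32 and the lowest C value 5.99, whereas M spanned both. Means were 16.4 ± 14.9 in C, 6.02 ± 6.02 in M and 1.59 ± 0.53 in AA (SD, n = 5). In AA vs. C Vegfa fell by 2.43 on the log2(FPKM + 1) scale (SE 0.42, 95% interval -3.35 to -1.52, limma adjusted p = 0.00156). The call held in all 10 fits with 1 library left out (log2 fold changes from -2.68 to -2.02) and with C 2, 4 and 5 alone as controls (-2.88, limma adjusted p = 0.00126).

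Between the adenine groups and in the disease contrast, Vegfa missed the threshold. In M vs. C its log2 fold change was -1.36 (SE 0.59, limma adjusted p = 0.274), and in AA vs. M -1.08 (SE 0.48, 95% interval -2.10 to -0.06, limma adjusted p = 0.133). Both values depended on which M libraries were used. M 1 to 3 alone against C gave -2.06, which was called (limma adjusted p = 0.0208), while AA against M 4 and 5 alone gave -2.13, also called (limma adjusted p = 0.0109). AA vs. M was also called with quantile normalization (-1.48) and with library quality weights (-1.43).

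Ankrd37 (ENSMUSG00000050914, chromosome 8, 45996902 to 46005707, minus strand) encodes a small ankyrin repeat protein and is an established HIF-1 target. It measured 1.32, 1.21, 0.98, 0.42 and 0.19 FPKM in C 1 to 5, 0 in M 1 to 3, 0.89 and 0.46 in M 4 and 5, and 0 in every AA library but AA 4, at 0.25. The 5 C libraries held 10 to 100 fragments on this gene, M 4 and 5 held 40 and 22, and AA 4 held 8. A level of 0 was compatible with 3 fragments, or up to 0.19 FPKM in the M libraries at 0 and up to 0.22 in the AA libraries at 0, which is about the lowest control value, and these limits cover counting error only. In AA vs. C the log2 fold change was -0.76 (SE 0.19, limma adjusted p = 0.00888), past the p threshold in all 10 fits with 1 library left out but short of the fold threshold. With a pseudocount of 0.1 it was called at -2.62, and with TPM scaling at -1.43. M vs. C gave -0.53 (SE 0.26, limma adjusted p = 0.328), and in AA vs. M too few libraries were above 0 for a test. A test needed 5 libraries above 0, and Ankrd37 had them through C alone, with 1 AA and 2 M libraries above 0. Its p-values against C are therefore given as a description. By position, 26.4% of the exon bases of Ankrd37 are shared with Ufsp2 and Lrp2bp on the opposite strand. The paper names no library step that marks strand, and without one, fragments there cannot be assigned to one or the other.

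Of the alpha subunits, Epas1 (ENSMUSG00000024140, chromosome 17, 86753700 to 86833410, plus strand) had its highest levels in AA. It measured 14.5, 9.22, 6.28, 16.8 and 14.2 FPKM in C 1 to 5, 10.53, 1.19, 7.32, 17.99 and 8.09 in M 1 to 5, and 16.1, 13.8, 23.7, 18.5 and 18.6 in AA 1 to 5. The AA and M groups overlapped through M 4, and M 2 was far below the rest. Means were 12.2 ± 4.30 in C, 9.03 ± 6.08 in M and 18.1 ± 3.66 in AA (SD, n = 5). AA vs. M gave a log2 fold change of 1.21 (SE 0.48, 95% interval 0.19 to 2.23), and the limma adjusted p of 0.0959 missed the threshold. It was called without M 4 (1.51, limma adjusted p = 0.036) and against M 1 to 3 alone (1.67, limma adjusted p = 0.0187). Against M 4 and 5 alone it was not called. TPM gave 1.13 (limma adjusted p = 0.323) and limma voom on recovered fragments 1.18 (adjusted p = 0.221), neither called. AA vs. C gave 0.59 (limma adjusted p = 0.109) and M vs. C -0.62 (limma adjusted p = 0.558). The AA vs. C value had the opposite sign with TPM (-0.45) and with limma voom (-0.30).

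Hif1a (ENSMUSG00000021109, chromosome 12, 73901375 to 73947530, plus strand) was high in some libraries of C and of M. Its level was 5.25, 1.68, 11.4, 2.17 and 1.71 FPKM in C 1 to 5, 4.06, 9.02, 7.23, 2.15 and 1.08 in M 1 to 5, and 1.68, 1.71, 2.74, 4.00 and 2.79 in AA 1 to 5. The high C libraries were C 1 and C 3, those with high Aqp2, and the high M libraries were M 1 to 3, those with few genes above 0. The log2 fold change was 0.12 in M vs. C (limma adjusted p = 0.914), -0.48 in AA vs. M (95% interval -1.39 to 0.43, limma adjusted p = 0.468) and -0.36 in AA vs. C (limma adjusted p = 0.506). AA against M 1 to 3 alone was called at -1.10 (limma adjusted p = 0.0284), and AA against M 4 and 5 alone had the opposite sign at 0.45. With only C 2, 4 and 5 as controls the AA vs. C value was 0.29 in place of -0.36. Exons of Hif1a share 8.11% of their bases with the antisense gene Gm15283 and with Gm49321 on the same strand.

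Of the genes that mark HIF alpha for degradation, Egln1, Egln3 and Vhl were not called in any comparison. Egln1 (chromosome 8, 124908587 to 124949324, minus strand), whose product PHD2 is the main oxygen sensor, averaged 4.34 ± 1.33 FPKM in C, 4.75 ± 2.49 in M and 5.17 ± 1.37 in AA (SD, n = 5). Its 15 values ran from 2.70 in C 2 to 8.67 in M 3, and the log2 fold changes were 0.05 for M vs. C, 0.17 for AA vs. M and 0.22 for AA vs. C. The intervals of these differences were -0.66 to 0.76, -0.55 to 0.89 and -0.31 to 0.74, all within 1 in size on the log2(FPKM + 1) scale. That scale shrinks changes of FPKM at these low levels, so the intervals do not bound the fold change of FPKM itself. They also hold for the deposited scaling only, since TPM gave -0.86 for Egln1 in M vs. C. Vhl (chromosome 6, 113623959 to 113631633, plus strand) averaged 2.05 ± 0.59, 2.36 ± 1.34 and 2.44 ± 1.08 in C, M and AA (SD, n = 5). Its log2 fold changes were 0.07, 0.06 and 0.14, with intervals within 1 in size on the same scale and under the same limits.

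Egln3 (chromosome 12, 54178981 to 54203860, minus strand), itself a HIF target that encodes PHD3, was spread widest in M. It measured 2.02, 1.09, 3.78, 1.83 and 1.02 FPKM in C 1 to 5, 5.05, 1.22, 5.78, 0.12 and 0.67 in M 1 to 5, and 0.66, 1.00, 3.00, 1.61 and 2.99 in AA 1 to 5. M 1 and M 3 were the highest of the 15 libraries and M 4 the lowest, so the M group held both ends. The log2 fold changes were -0.01 in M vs. C, -0.06 in AA vs. M and -0.07 in AA vs. C, with 95% intervals of -1.08 to 1.07, -1.13 to 1.01 and -0.76 to 0.63.

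Bnip3 (ENSMUSG00000078566, chromosome 7, 138890836 to 138909519, minus strand) encodes a mitochondrial protein that recruits the autophagy machinery in hypoxia. It measured 1.87, 2.15, 1.89, 5.57 and 2.90 FPKM in C 1 to 5, 3.96, 5.66, 8.97, 1.88 and 0.66 in M 1 to 5, and 3.83, 5.53, 4.83, 3.75 and 2.17 in AA 1 to 5. M 1 to 3 and AA 1 to 4 were above every C library except C 4, which only M 2 and M 3 exceeded, and M 5 was the lowest of the 15. No difference passed, with log2 fold changes of 0.25 in M vs. C (limma adjusted p = 0.797), 0.16 in AA vs. M (limma adjusted p = 0.843) and 0.41 in AA vs. C (limma adjusted p = 0.271). The antisense gene Gm45507 overlaps 22.3% of the exon bases, and its fragments cannot be separated if the libraries do not mark strand.

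Epo (ENSMUSG00000029711, chromosome 5, 137483020 to 137533242, minus strand), the erythropoietin gene, was the only one of the 9 at 0 in libraries of every group. It measured 0.70 and 0.90 FPKM in C 2 and C 4 and 0 in the other 3 controls. In M 3, M 4 and M 5 it was at 4.82, 6.22 and 0.41, and in AA 3, AA 4 and AA 5 at 0.86, 5.91 and 4.07, while M 1, M 2, AA 1 and AA 2 were at 0. The highest control value was thus below M 3, M 4, AA 4 and AA 5, and the groups overlapped through the libraries at 0. Those 4 high libraries held 56, 156, 104 and 56 fragments, against 24 and 26 in C 2 and C 4. A library at 0 could hold up to 0.11 FPKM in C, 0.34 in M and 0.39 in AA (3 fragments), which is below every value above 0. The log2 fold change was 0.84 in M vs. C (SE 0.56, 95% interval -0.36 to 2.04, limma adjusted p = 0.475), 0.87 in AA vs. C (SE 0.52, limma adjusted p = 0.203) and 0.03 in AA vs. M (95% interval -1.46 to 1.51). Library quality weights alone gave a call, in AA vs. C (1.33, limma adjusted p = 0.0404). Epo passed the filter on low values with exactly the 5 libraries above 0 that it required, both in AA vs. C and in M vs. C. Exons of Epo span 855 bases, of which 12.2% are shared with Gnb2 on the same strand.

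**Figure D2:**
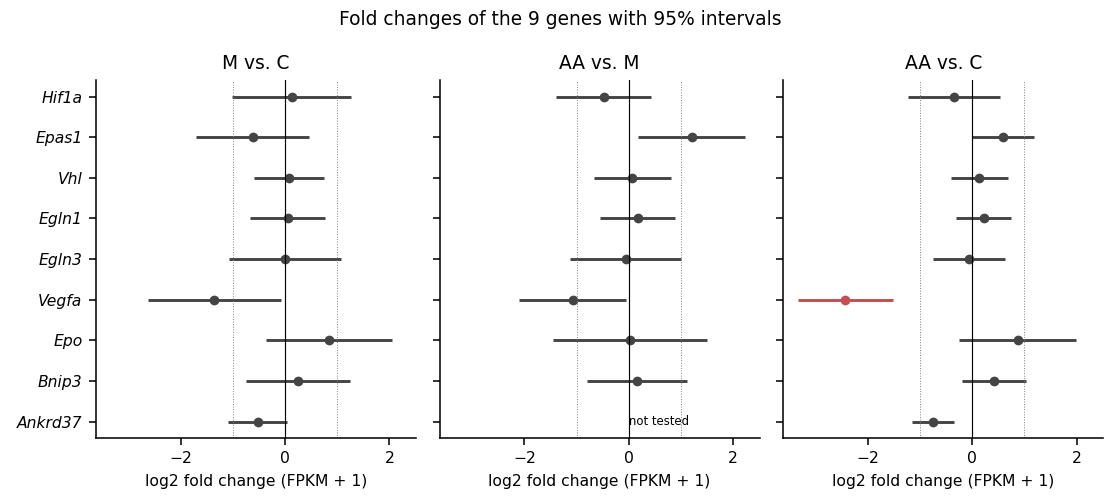
Log2 fold change on the log2(FPKM + 1) scale (horizontal axis) of the 9 genes in 3 comparisons, with 95% intervals as bars, called genes in red and dotted lines at 1 in either direction. Vegfa in AA vs. C, at -2.43, is the only call, and Ankrd37 was not tested in AA vs. M.

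Other genes of the pathway were taken from 6 lists that hold 106 genes beside the 9. Of these, 1 of 105 tested was called in M vs. C, 3 of 103 in AA vs. M, all higher, and 17 of 105 in AA vs. C, 3 higher and 14 lower, against the shares of 1.38%, 12.8% and 19.8% over all genes. With TPM scaling these counts became 15 lower in M vs. C, 0 in AA vs. M, and 1 higher and 47 lower in AA vs. C, and with quantile normalization AA vs. M gave 2 higher and 3 lower. The count of 3 in AA vs. M was 0 without M 3, 1 without AA 1 or without M 2, and 5 without M 1. Limma voom on recovered fragments called 13 in M vs. C, 0 in AA vs. M and 51 in AA vs. C, beside 1805, 1666 and 8557 of all genes. Its calls in M vs. C and AA vs. C were 1 and 11 for the HIF machinery and 4 and 13 for targets outside glycolysis. For glycolysis they were 3 and 9, for the vascular list 0 and 7, and for the erythropoietin list 3 and 6.

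In the machinery of HIF degradation and co-activation, 0 of 20 genes were called by limma in M vs. C or AA vs. M (3 and 1 at an unadjusted p under 0.05), and 2 were lower in AA vs. C. Elob, the elongin B subunit that joins VHL to its ligase, was at 40.2 to 56.4 FPKM in C, 18.004 to 33.6 in M and 13.0 to 21.9 in AA, so both adenine groups lay below all controls. It fell by 1.51 on the log2 scale in AA vs. C (limma adjusted p = 0.000562), and M vs. C gave -1.03 (limma adjusted p = 0.084), the largest value of the list there. Usp20, a deubiquitinase that acts on HIF-1 alpha, fell by 1.53 in AA vs. C (limma adjusted p = 0.00463). Rbx1, the RING subunit of the ligase, had the largest value of AA vs. M at -0.67 (limma adjusted p = 0.137). The median log2 fold change of the list was -0.12 in M vs. C, -0.22 in AA vs. M and -0.19 in AA vs. C.

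Among 33 HIF targets outside glycolysis, 1 was called lower in M vs. C, 2 higher in AA vs. M, and 3 higher and 4 lower in AA vs. C. Car9, the hypoxia-inducible carbonic anhydrase, was at 0.50 to 2.09 FPKM in C, at 0 in M 1 to 4 and 0.36 in M 5, and at 0 to 0.38 in AA. Its log2 fold change was -1.16 in M vs. C (limma adjusted p = 0.0406) and -1.05 in AA vs. C (limma adjusted p = 0.00459), and it was not tested in AA vs. M. Car9 had the 5 libraries above 0 needed for a test through C alone, with 1 in M and 3 in AA. These p-values are therefore given as a description. With 1 library left out, Car9 was called in 3 of 10 fits of M vs. C (limma adjusted p at most 0.115 in all) and in 5 of 10 fits of AA vs. C, where the size fell below 1 in the others. Car12, another carbonic anhydrase, the cytokine Mif and the glycolysis regulator Pfkfb4 were lower in AA vs. C by -1.16, -1.12 and -1.21 on the log2 scale, and Car12 was not called without AA 3, AA 4, C 2 or C 5 (limma adjusted p at most 0.0534, log2 fold change -0.79 without C 2). The genes that rose encode matrix cross-linking enzymes and a chemokine receptor. Lox was higher in AA vs. C by 2.21 (limma adjusted p = 0.000133), at 1.06 to 2.15 FPKM in C and 7.40 to 14.1 in AA. Loxl2 rose by 1.65 in AA vs. C and by 1.34 in AA vs. M (limma adjusted p = 0.00112 and 0.0455), and Cxcr4 by 1.497 and 1.39 (limma adjusted p = 0.00324 and 0.027). In AA vs. M, Loxl2 was called in 2 of 10 fits with 1 library left out, Cxcr4 was lost without AA 1, M 1, M 2 or M 3 (limma adjusted p at most 0.0643), and neither was called against M 4 and 5 alone (0.84 and 0.72). The median log2 fold change of the list was -0.03 in M vs. C, 0.02 in AA vs. M and 0.05 in AA vs. C. Beside them, 7 of 9 interstitial fibroblast and pericyte markers were called higher in AA vs. C, with summed levels of 47.7 to 119.3 FPKM in C and 266.4 to 474.8 in AA. The part of these cells in the values was not tested.

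For glucose uptake and glycolysis, 0 of 18 genes were called by limma in M vs. C or AA vs. M (4 and 2 at an unadjusted p under 0.05), and 4 were lower in AA vs. C: Gapdh (-2.57), Gpi1 (-1.38), Aldoa (-1.28) and Hk1 (-1.05, limma adjusted p of the 4 at most 0.011). Hk1 was at -0.83 without AA 1 and at -0.98 with C 2, 4 and 5 alone, in both cases not called. The median log2 fold change of the list was -0.01 in M vs. C, -0.19 in AA vs. M and -0.18 in AA vs. C. Aldoa, an aldolase, was at 78.8 to 104.9 FPKM in C, 29.9 to 62.4 in M and 27.7 to 51.7 in AA. Gapdh was at 2.63 to 12.9 FPKM in C and 0 to 0.10 in AA. These levels are uncertain, since Gapdh has many near-identical copies in the mouse genome and how fragments that match several places were counted is not given in the sources used here. Gapdh was also at 0 in AA 1 and AA 2, so C alone met the filter of 5 libraries above 0. Its call in AA vs. C is therefore given as a description. Within M, the 18 genes differed between libraries in both directions. In M 1 to 3, 7 of them were above both M 4 and M 5 and 5 were below both, beside 7.32% and 48.2% of all genes tested in M vs. C. Among the higher, Ldha, lactate dehydrogenase A, was at 36.3, 57.4 and 57.4 FPKM in M 1 to 3, but 13.7 and 7.64 in M 4 and 5, 7.98 to 16.94 in C and 16.95 to 20.1 in AA. Pgk1 was at 46.3, 32.3 and 45.9 in M 1 to 3 and at most 19.9 in any other library. Pgam1 was at 16.2, 41.7 and 34.9 in M 1 to 3 and 12.2 to 17.1 in AA, so M 1 lay within the AA range. Among the lower, Gpi1, glucose-6-phosphate isomerase, was at 6.41 to 9.13 in M 1 to 3 against 17.98 and 18.16 in M 4 and 5, and the hexokinase Hk1 at 1.28 to 1.88 against 2.38 and 3.56. Of the 9 genes, Hif1a (4.06 to 9.02 FPKM), Bnip3 (3.96 to 8.97) and Egln3 (1.22 to 5.78) were higher in M 1 to 3 than in both M 4 and M 5. Vegfa (1.29 to 4.56 against 6.27 and 16.2) and Ankrd37 (0 against 0.89 and 0.46) were lower, and Epas1, Vhl, Egln1 and Epo overlapped. Libraries M 1 to 3 also had summed macrophage markers of 356 to 465 FPKM against 161 and 163 in M 4 and 5, and the fewest genes above 0. The part of cell makeup and of library depth in this pattern was not tested.

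**Figure D3:**
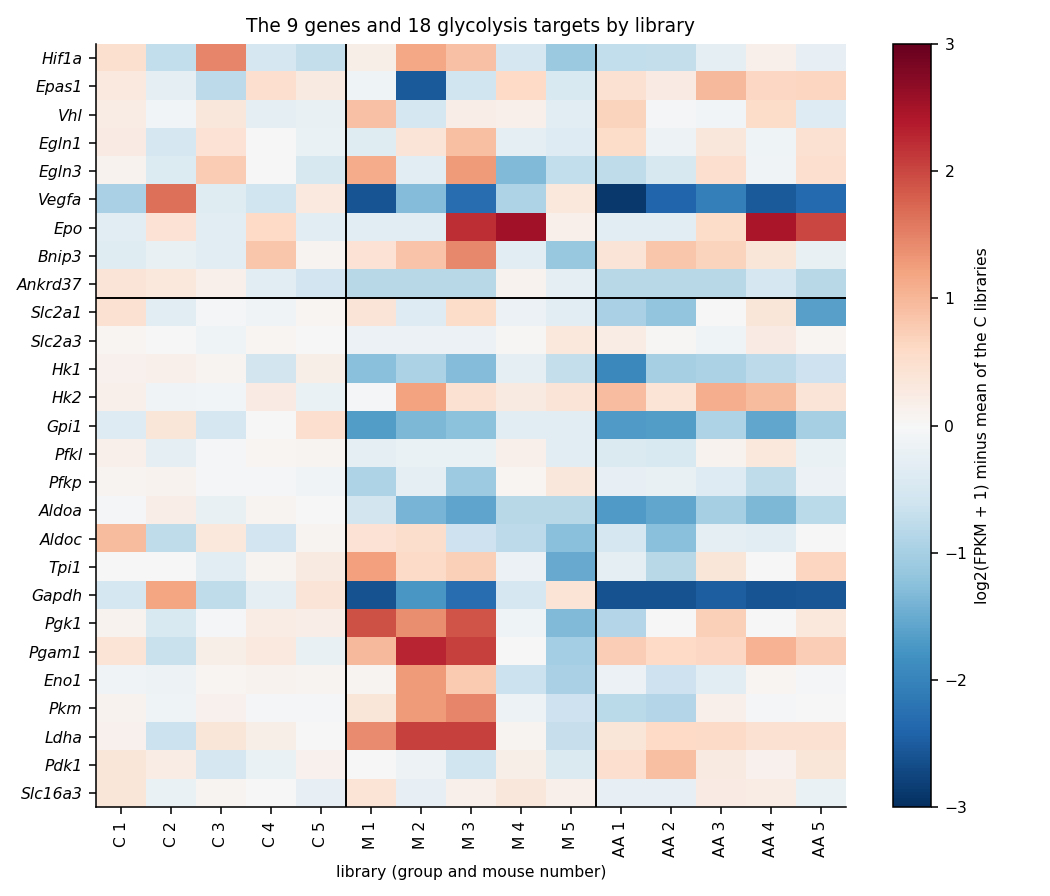
Each cell is log2(FPKM + 1) of a gene (rows) in a library (columns, by group and mouse number) minus the mean of the 5 C libraries, with red for higher and blue for lower. Above the line are the 9 genes and below it the 18 glycolysis targets, of which Ldha and Pgk1 are red in M 1 to 3 and Gpi1 and Hk1 are blue, while Vegfa and Gapdh are blue in all AA libraries.

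The vascular ligands and receptors that act beside Vegfa gave 2 calls of 13, both lower in AA vs. C, and 0 by limma in the other comparisons (at an unadjusted p under 0.05, M vs. C had 1 and AA vs. M had 2). Vegfb, a related ligand, fell by 1.36 (limma adjusted p = 0.0043), from 8.99 to 20.6 FPKM in C to 3.11 to 6.64 in AA. Tie1, an endothelial receptor that is also among the endothelial markers, fell by 1.42 (limma adjusted p = 0.000409), and its value in M vs. C, -1.003 (limma adjusted p = 0.323), was the largest of the list. Within M, Tie1 was at 0, 0.62 and 1.53 FPKM in M 1 to 3 and at 4.58 and 6.46 in M 4 and 5. Nrp1, a VEGF co-receptor, had the largest value of AA vs. M at 0.96 (limma adjusted p = 0.148), and was called without M 5 (1.24, limma adjusted p = 0.0413). List medians were -0.38 in M vs. C, 0.34 in AA vs. M and -0.19 in AA vs. C. Among 8 endothelial markers, 3 were called lower in AA vs. C and 0 by limma in M vs. C or AA vs. M, and their summed level was 68.6 to 147.2 FPKM in C, 37.0 to 101.5 in M and 54.7 to 116.5 in AA. Podocytes, a major source of VEGF-A, had 1 of 7 markers called higher and 1 lower in AA vs. C and 1 higher in AA vs. M, with sums of 5.73 to 16.8 FPKM in C, 2.38 to 25.1 in M and 9.46 to 15.9 in AA.

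Of 10 genes for the erythropoietin receptor, its signalling and the factors that control Epo, 0 were called in M vs. C by limma (5 at an unadjusted p under 0.05), 1 was higher in AA vs. M and 2 were lower in AA vs. C. Epor, the receptor, was at 8.47 and 12.4 FPKM in C 1 and C 3, at 1.25 to 1.74 in the other controls, at 0 to 1.75 in M and at 0 to 0.37 in AA. It fell by 2.01 in AA vs. C (limma adjusted p = 0.00677), and with C 2, 4 and 5 alone as controls by 1.14 (limma adjusted p = 0.00164). With all controls, C alone met the filter of 5 libraries above 0, since Epor was at 0 in AA 2 and AA 3. The p-values of Epor are therefore given as a description. Gata2, a repressor of Epo, fell by 1.40 (limma adjusted p = 0.00194), from 2.34 to 5.48 FPKM in C to 0.29 to 1.48 in AA. Hnf4a, a hepatic and proximal tubule factor that co-activates Epo, was at 8.51 to 31.0 FPKM in C, 0.91 to 9.37 in M and 11.7 to 18.8 in AA, and rose by 1.79 in AA vs. M (limma adjusted p = 0.0195). It was not called without M 3 (1.51, limma adjusted p = 0.0557) or against M 4 and 5 alone (0.69, limma adjusted p = 0.201). List medians were -0.42 in M vs. C, 0.01 in AA vs. M and -0.38 in AA vs. C. In M 1 to 3 it was at 3.80, 0.91 and 1.05 FPKM, and in M 4 and 5 at 9.37 and 7.60.

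Of 13 mitophagy genes that act beside Bnip3, 12 were tested and limma called 0 in each of the 3 comparisons (at an unadjusted p under 0.05, M vs. C had 0, AA vs. M had 1 and AA vs. C had 5). With limma voom on recovered fragments, 2 were lower in M vs. C, 0 were called in AA vs. M and 5 were lower in AA vs. C. Map1lc3a, an LC3 protein of the autophagosome membrane, had the largest value both in M vs. C, at -0.76 (limma adjusted p = 0.52), and in AA vs. M, at 0.94 (limma adjusted p = 0.29). It was at 3.76 to 11.3 FPKM in C, 0 to 8.83 in M and 4.13 to 15.3 in AA, so all groups overlapped, and the value at 0 was that of M 2. Without M 2 its AA vs. M value was 0.36 and its M vs. C value -0.18. List medians were -0.23 in M vs. C, -0.12 in AA vs. M and 0.06 in AA vs. C.

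**Figure D4:**
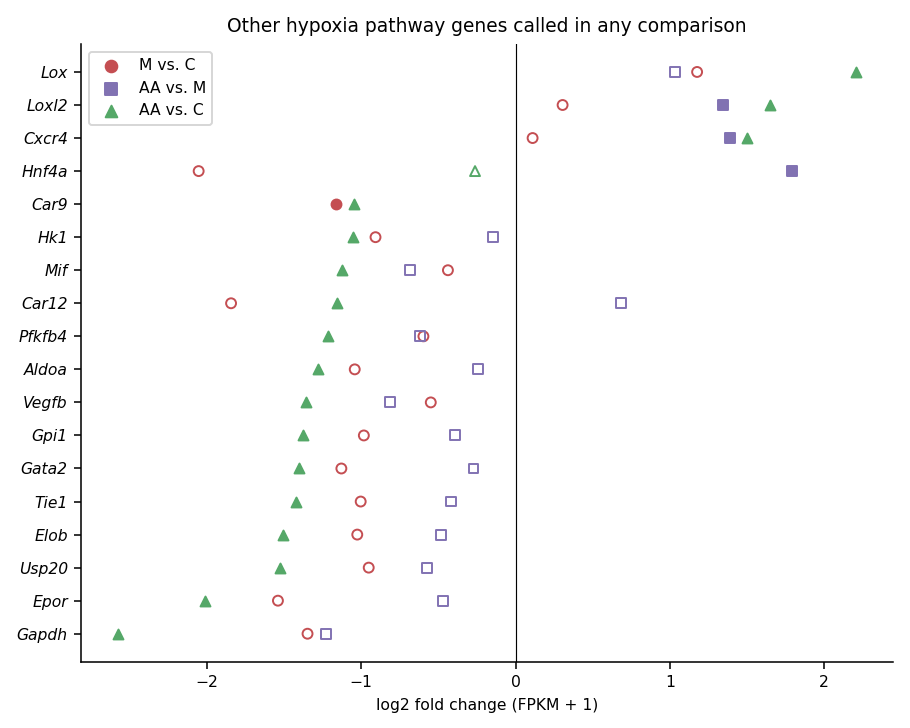
Log2 fold changes on the log2(FPKM + 1) scale (horizontal axis) of the other pathway genes called in any comparison, with circles for M vs. C, squares for AA vs. M and triangles for AA vs. C, filled where called. Lox, Loxl2 and Cxcr4 lie to the right, as does Hnf4a in AA vs. M, and Gapdh, at -2.57 in AA vs. C, lies farthest to the left.

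Cell markers moved with the groups and are given as measured. Proximal tubule markers summed to 4290 to 17862 FPKM in C, 266 to 974 in M and 482 to 1050 in AA, with 7 of 12 called lower in M vs. C. Against C, AA had 9 of them lower. The 9 macrophage markers summed to 18.1 to 118.9 FPKM in C, 161.0 to 464.9 in M and 113.4 to 166.0 in AA, with 4 called higher in M vs. C, 1 lower in AA vs. M, and 5 higher and 1 lower in AA vs. C. Of fibroblast and pericyte markers, 1 of 9 was higher in M vs. C, another call was higher in AA vs. M, and their sum in M was 104.2 to 401.8 FPKM. Collecting duct markers had 1 of 5 lower in both comparisons with C, with sums of 33.0 to 450.8 FPKM in C, 3.65 to 24.4 in M and 7.47 to 18.7 in AA. Thick ascending limb markers had 1 of 5 lower in AA vs. C, with sums of 47.9 to 106.8 in C, 14.1 to 96.7 in M and 36.3 to 63.6 in AA. T cell markers had 2 of 6 higher in both comparisons with AA, with sums of 0.75 to 9.21 in C, 1.74 to 14.3 in M and 10.1 to 19.6 in AA. Among B and plasma cell markers 1 was lower in AA vs. C, with sums of 0.47 to 47.1 FPKM in C, 4.66 to 51.6 in M and 1.72 to 12.02 in AA. Of 6 erythroid markers 2 were lower in AA vs. C, and their sum was 30.4 to 211.8 FPKM in C, 13.3 to 31.2 in M and 7.51 to 41.0 in AA. These sums are dominated by the haemoglobin genes. All 15 libraries held proximal tubule markers.

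Over the 15 libraries, genes above 0 in every library (7207) were ranked by Pearson's r of log2(FPKM + 1) with each of the 7 members that were also above 0 throughout, as a description, since the points share libraries, groups and depth. Epas1 was most like Pdgfrb, the pericyte and fibroblast PDGF receptor (r = 0.94), and the matrix gene Ecm1 (r = 0.93). M 2 was the lowest library for both Epas1 and Pdgfrb, at 1.19 and 0.77 FPKM. Vegfa was most like Nprl3 and Polrmt (r = 0.97 for both). Hif1a was most like Rad21 (r = 0.90) and Psat1 (r = 0.89), and Egln1 like Srp9 (r = 0.88) and Alg10b (r = 0.87). For Egln3 the leading genes were Gng5 (r = 0.86) and Spcs2 (r = 0.83), for Bnip3 Paics and Gm6136 (r = 0.85 for both), and for Vhl Mtmr6 (r = 0.84) and Rbl2 (r = 0.81). None of the 7 had another of the 9 genes among its leading pair.

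**Figure D5:**
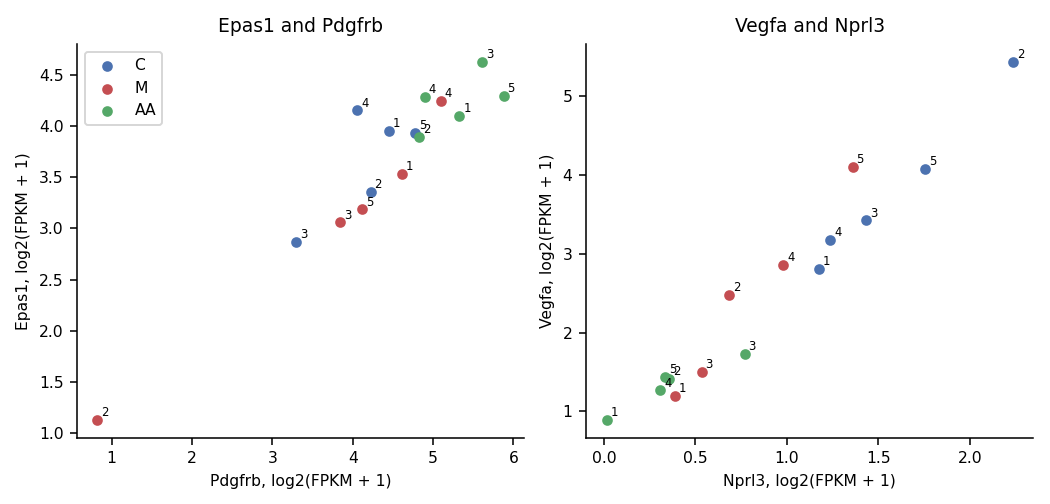
Log2(FPKM + 1) of Epas1 against Pdgfrb (left) and of Vegfa against Nprl3 (right), with 1 point per library, coloured by group and numbered by mouse. Library M 2 lies far below the rest in the left panel, and the AA libraries lie at the lower end in the right panel.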

How the data were processed

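RNA of 15 mouse kidneys, 5 each in C, M and AA, was sequenced by the authors as poly-A libraries in paired ends of 150 bases, trimmed with fastp, aligned with HISAT2 2.0.5 and counted with featureCounts 1.5.0-p3. The submitters' processing notes name the build mm10, and the annotation release is not given in the sources used here. The deposited values are FPKM per gene. They were used without rescaling, although the values times gene length sum to 0.43 to 1.93 of a library's denominator, so the denominator was not each library's fragments on genes. Symbols, positions and lengths came from GENCODE M21 (GRCm38), which lacked 123 of 54532 identifiers. Between 96.2% and 99.0% of low values per library were within 0.05 of a whole number of fragments.

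Each comparison used limma 3.58.1 (intensity trend) in R 4.3.3 on log2(FPKM + 1), with the 10 libraries compared, for genes above 0 in at least 5 of them. A gene was called where its adjusted p (Benjamini-Hochberg, over the whole table tested) did not exceed 0.05 and its log2 fold change reached 1 in size. The fold changes understate those of low genes. The labels do not say more than that mice were separate, so p-values measure the spread between these mice. Figures and summaries used Python 3.11.15, pandas 2.3.3, numpy 2.4.6, scipy 1.17.1 and matplotlib 3.10.9.

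The 9 genes and all lists were chosen with earlier results of these data known. A gene of the mitophagy list and a gene of the erythroid list are not reported here and are in no count of the lists. The text names the 9 genes, every gene of the pathway lists that was called, the largest value of M vs. C and of AA vs. M in lists with fewer than 3 called genes, and the 2 genes most like each of those above 0 in every library. The levels of Ldha, Pgk1, Pgam1, Gpi1 and Hk1 within M and of Aqp2 were picked on seeing their values. The alternatives were other pseudocounts, filters and scalings, all libraries in one fit, quality weights, no trend, a replicate block and each library left out. Those added after the data were seen were limma voom on recovered fragments, M 1 to 3 or M 4 and 5 alone, and C 2, 4 and 5 alone. The authors' own comparison used DESeq2 on counts, which were not used here.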

Additional observations from a re-analysis of the deposited data

Results flagged for a closer look

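Dixon's ratio over the 5 libraries of a group, taken for each of the 9 genes in each of the 3 groups (27 groups), exceeded the critical value of 0.71 in 3 groups, where chance gives about 1 in 20. Vegfa in C 2 was at 42.3 FPKM, with 15.8 in the next highest control (ratio 0.73). Without C 2 the Vegfa log2 fold change of AA vs. C was -2.02, with a limma adjusted p of 0.000998. Bnip3 in C 4 was at 5.57 FPKM, with 2.90 in the next (ratio 0.72). Ankrd37 in AA 4 was at 0.25 FPKM and in the other AA libraries at 0 (ratio 1).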

How the results depend on the processing

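Vegfa in AA vs. C kept its direction and its call in every alternative run, including each library left out. Calls among the 9 genes in M vs. C numbered 0 as reported and 1 with M 1 to 3 alone. Other hypoxia pathway genes called in M vs. C numbered 1 as reported and 0 with pseudocount 0.01, 0 with no filter on low values, 15 with TPM, 7 with all 15 libraries in one fit, 3 with no intensity trend, 0 with replicate block, 13 with limma voom on recovered fragments, 0 with M 4 and 5 alone, 24 with M 1 to 3 alone. Genes called in M vs. C numbered 291 as reported and 110 with pseudocount 0.01, 33 with no filter on low values, 448 with mean FPKM of at least 1, 1609 with TPM, 786 with all 15 libraries in one fit, 188 with library quality weights, 152 with replicate block, 1805 with limma voom on recovered fragments, 0 with M 4 and 5 alone (2489 at an unadjusted p under 0.05 in limma), 3404 with M 1 to 3 alone. Calls among the 9 genes in AA vs. M numbered 0 as reported and 1 with quantile normalization, 1 with library quality weights, 1 with M 4 and 5 alone, 2 with M 1 to 3 alone. Other hypoxia pathway genes called in AA vs. M numbered 3 as reported and 1 with pseudocount 0.01, 1 with no filter on low values, 0 with TPM, 0 with TPM without mitochondrial genes, 5 with quantile normalization, 1 with replicate block, 0 with limma voom on recovered fragments, 8 with M 4 and 5 alone, 13 with M 1 to 3 alone. Genes called in AA vs. M numbered 2533 as reported and 422 with TPM, 1666 with limma voom on recovered fragments, 1656 with M 4 and 5 alone. Calls among the 9 genes in AA vs. C numbered 1 as reported and 2 with pseudocount 0.1, 2 with pseudocount 0.01, 2 with TPM, 2 with TPM without mitochondrial genes, 2 with library quality weights, 2 with limma voom on recovered fragments. Other hypoxia pathway genes called in AA vs. C numbered 17 as reported and 48 with TPM, 26 with TPM without mitochondrial genes, 51 with limma voom on recovered fragments. Genes called in AA vs. C numbered 4346 as reported and 7474 with pseudocount 0.1, 6785 with TPM, 7190 with TPM without mitochondrial genes, 8557 with limma voom on recovered fragments. With 1 library left out, counts ran from 0 to 5 for other hypoxia pathway genes called in M vs. C, 4 to 954 for genes called in M vs. C, 0 to 1 for calls among the 9 genes in AA vs. M, 0 to 5 for other hypoxia pathway genes called in AA vs. M, the 1 call among the 9 genes being Epas1 without M 4, and the 4 and 954 being without C 5 and without M 5. Log2 fold changes that changed sign, none of them called as reported, were the following. The setting TPM did so in M vs. C for Hif1a (-0.79), Vhl (-0.73), Egln1 (-0.86), Bnip3 (-0.65), and in AA vs. M for Egln3 (0.058), and in AA vs. C for Epas1 (-0.45), Vhl (-0.69), Egln1 (-0.74), Bnip3 (-0.47). The setting library quality weights did so in M vs. C for Hif1a (-0.18), Egln1 (-0.12), Bnip3 (-0.16), and in AA vs. M for Hif1a (0.11), Egln3 (0.84), Epo (-0.41), and in AA vs. C for Egln3 (0.095). The setting limma voom on recovered fragments did so in M vs. C for Hif1a (-0.80), Vhl (-0.74), Egln1 (-0.81), Bnip3 (-0.69), and in AA vs. M for Vhl (-0.12), Egln3 (0.38), and in AA vs. C for Epas1 (-0.30), Vhl (-0.83), Egln1 (-0.68), Bnip3 (-0.42). The setting M 4 and 5 alone did so in M vs. C for Hif1a (-0.81), Epas1 (0.066), Vhl (-0.085), Egln1 (-0.34), Bnip3 (-0.75), Tie1 (0.20), and in AA vs. M for Hif1a (0.45), Egln3 (0.97), Epo (-0.47), Nrp1 (-0.040). The setting quantile normalization did so in M vs. C for Egln3 (0.14), and in AA vs. M for Vhl (-0.21), Egln1 (-0.032), Epo (-0.033), Bnip3 (-0.020). The setting centring on library medians did so in M vs. C for Egln3 (0.046), and in AA vs. C for Egln3 (0.046). The setting M 1 to 3 alone did so in M vs. C for Egln3 (0.68), and in AA vs. M for Vhl (-0.043), Egln1 (-0.086), Bnip3 (-0.50). The setting C 2, 4 and 5 alone did so in M vs. C for Egln3 (0.29), and in AA vs. C for Hif1a (0.29), Egln3 (0.23). The setting TPM without mitochondrial genes did so in AA vs. M for Vhl (-0.071), Egln3 (0.058). The setting pseudocount 0.1 did so in AA vs. M for Egln3 (0.21). The setting pseudocount 0.01 did so in AA vs. M for Egln3 (0.34). With 1 library left out, values that changed sign had the ranges -0.14 to 0.49 for Hif1a in M vs. C, -0.13 to 0.22 for Vhl in M vs. C, -0.17 to 0.16 for Egln1 in M vs. C, -0.32 to 0.33 for Egln3 in M vs. C, -0.051 to 0.59 for Bnip3 in M vs. C, -0.087 to 0.26 for Vhl in AA vs. M, -0.39 to 0.26 for Egln3 in AA vs. M, -0.37 to 0.44 for Epo in AA vs. M, -0.19 to 0.46 for Bnip3 in AA vs. M, -0.54 to 0.0091 for Hif1a in AA vs. C, -0.21 to 0.13 for Egln3 in AA vs. C. TPM moved the median of all genes by -0.45 in M vs. C, -0.048 in AA vs. M and -0.48 in AA vs. C, and relative to its median Vegfa in AA vs. C was at -3.15. Of the calls in M vs. C 19.6% were higher as reported and 1.93% with TPM, in AA vs. C 51.6% and 12.7%, and in AA vs. M 91.6% and, with quantile normalization, 73.5%. The causes of these changes were not tested. Mouse numbers were treated as names, since the labels give no pairing. Same-numbered libraries correlated at -0.14 to 0.23 after removal of group means, and no comparison had every pair above 0.1. With so few pairs these correlations cannot show whether the numbers reflect shared handling. The replicate block left 0 of the 9 genes called in M vs. C, 0 in AA vs. M and 1 in AA vs. C. Depth limits Epo and Ankrd37 most, and in some fits with a library left out Epo fell below the filter and was not tested.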
